A study of Mus musculus with 13 samples.

Results

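The genes described here are 10 genes of DOCK8 and Rac actin signalling, chosen by name for their place in that pathway: Dock8, Dock2, Vav1, Rac1, Rac2, Cdc42, Was, Coro1a, Msn and Ezr. All 10 were found among the 26720 genes of the count table. The data are RNA read counts per gene from 13 libraries of regulatory T (Treg) cells, sorted as CD4+YFP+ from the spleens of mice aged about 4 to 5 weeks. The deleted group holds 6 libraries of genotype Foxp3YFPCre/+Stk3∆/∆Stk4∆/∆, called Het in the labels, and the control group holds 7 libraries of genotype Foxp3YFPCre, called WT. All libraries therefore carry the Foxp3-driven YFP-Cre allele, a reporter and recombinase read out from the gene of the Treg transcription factor Foxp3. In the deleted group the Cre removes Stk3 and Stk4, which encode the Hippo kinases MST2 and MST1. It does so in cells that read out Foxp3 from the Cre allele, and the sort on YFP takes such cells. The /+ of the deleted label sets an allele without Cre beside the Cre allele. Foxp3 lies on chromosome X, so these mice read as female. Treg cells of these mice that read out only the allele without Cre would carry no YFP and would not be sorted. The labels give neither the zygosity of the allele nor the sex of the mice in the control group. They do not name the mouse behind each library, so the spread behind each p-value is that between libraries and may be technical.

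Rac1, Rac2 and Cdc42 are small GTPases, which bind GTP in their active state and turn on the building of branched actin filaments beneath the plasma membrane. Guanine nucleotide exchange factors such as DOCK8, DOCK2 and VAV1 load them with GTP, and WASP, coronin 1A and the ezrin-radixin-moesin (ERM) proteins act on actin and its link to the membrane. In mouse T cells the MST kinases have been placed upstream of DOCK8 and Rac, in part through the adaptor MOB1, in migration and in the interleukin-2 response of Treg cells. Loss of DOCK8 or WASP in humans causes immunodeficiency.

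Promoter windows are shown for 3 of the genes: for Dock8 and Dock2, because the ratio of their counts is compared below, and for Was, because it is one of the genes that fell. RefSeq windows of GRCm38.p6, from 250 bases before to 50 bases after an annotated start, were at hand for 8 of the 10 genes, with 9 windows in all. They are written along the gene's own strand. Capitals mark the ETS motif CCGGAA and the RUNX motif TGTGGT on either strand.
Dock8, chr19:24999279-24999578, plus strand: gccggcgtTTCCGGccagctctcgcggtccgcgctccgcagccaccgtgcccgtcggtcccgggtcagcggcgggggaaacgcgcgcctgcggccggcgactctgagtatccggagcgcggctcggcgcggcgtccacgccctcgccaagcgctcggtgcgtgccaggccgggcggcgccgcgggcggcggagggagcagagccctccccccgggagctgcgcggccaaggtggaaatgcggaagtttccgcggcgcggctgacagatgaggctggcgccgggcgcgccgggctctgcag
Dock2, chr11:34783856-34784155, minus strand: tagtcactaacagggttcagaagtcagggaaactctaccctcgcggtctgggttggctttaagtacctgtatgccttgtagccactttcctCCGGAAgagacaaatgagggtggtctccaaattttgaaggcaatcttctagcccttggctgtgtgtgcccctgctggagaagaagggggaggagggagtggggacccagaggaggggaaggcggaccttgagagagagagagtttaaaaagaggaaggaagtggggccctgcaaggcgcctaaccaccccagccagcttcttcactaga
Was, chrX:8090442-8090741, minus strand: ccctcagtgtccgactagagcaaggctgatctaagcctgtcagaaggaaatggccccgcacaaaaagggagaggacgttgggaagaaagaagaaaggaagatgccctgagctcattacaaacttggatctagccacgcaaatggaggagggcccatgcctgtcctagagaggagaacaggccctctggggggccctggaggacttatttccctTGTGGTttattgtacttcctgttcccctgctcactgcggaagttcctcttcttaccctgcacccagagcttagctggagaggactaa

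The windows differed in base composition. The Dock8 window held 52 CpG dinucleotides and 78.0% G or C, against 5 CpG and 54.3% for Dock2 and 5 CpG and 53.3% for Was. CCGGAA was in 4 of the 9 windows (Dock8, Dock2, Ezr and 1 of 2 for Coro1a), and in 14.9% of 32817 promoter windows of the same length. TGTGGT was in 1 of 9 (Was), against 16.8% of all windows. The forkhead motif TGTTTAC (3.65% of all windows) and the kappaB consensus (4.50%) were in 0 of 9. Both strands were searched. Each window shown held 1 marked motif, so none overlapped.

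Expression of the targeted genes and markers was read before the comparison. Stk4 ranged over 57.9, 137 and 394 TMM-scaled counts per 1e6 counts (CPM; lowest, median and highest) in deleted libraries, against 136, 228 and 291 CPM in control libraries. Stk3 was at 26.8, 33.5 and 44.2 CPM in deleted and 24.8, 30.8 and 47.9 CPM in control libraries. Counts here are given per gene and not per exon, so the removal of a few exons could go unseen and these levels check nothing about the labels. Foxp3 was detected in every library, at 16.6 to 64.6 CPM in deleted and 35.5 to 74.5 CPM in control libraries, and 6 Treg markers, each with counts in every library, summed to 613 to 1254 CPM in deleted and 850 to 3089 CPM in control libraries. Total counts were 2671660 to 4569655 per library in the deleted group and 3705511 to 8323919 in the control group (exact permutation test, two-sided, p = 0.00816). Genes of olfactory and vomeronasal receptors, which T cells are not known to use, took 0.761 to 1.89% of the counts in deleted and 0.371 to 1.07% in control libraries (exact permutation test, two-sided, p = 0.00641). This receptor share is given beside the results it moves with.

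Deleted Treg cells had lower median levels than control cells for each of the 10 genes, and 3 of them fell: Rac2, Rac1 and Was passed edgeR's quasi-likelihood test at an adjusted p under 0.05, adjusted over 24068 genes. None of the 10 rose, and 8 were lower and 0 higher at an unadjusted p under 0.05. At that unadjusted threshold 4083 of the 24068 genes were lower and 2133 higher. At the adjusted threshold, 8.52% of all genes tested were lower and 1.66% higher in the deleted group. Among the 5204 genes with at least 50 mean CPM, to which all 10 genes belong, 23.8% were lower and 0.596% higher. The count of 3 among 10 is thus above the share over all genes and near the share among well expressed genes. The unadjusted count was not taken among well expressed genes, nor over all genes in the other fits below. Unadjusted counts of the 10 genes therefore lack that background. The median log2 fold change (deleted over control, here and below) of the 10 was -0.77, beside 0.06 over all genes and -0.38 over those with at least 50 mean CPM. In every one of the 10 genes the ranges of the 2 groups overlapped. Among all genes tested, 1.44% had every deleted library below every control library, and among those with at least 50 mean CPM 3.31% did.

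**Figure D1:**
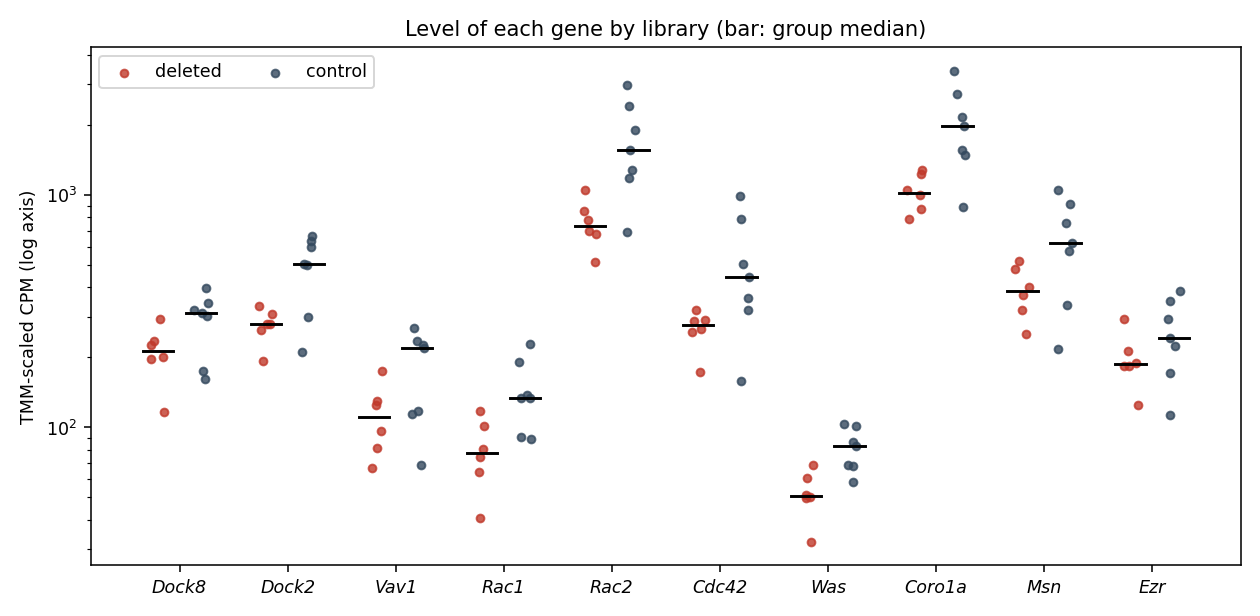
Level of each of the 10 genes in TMM-scaled CPM on a log axis, with a point per library (6 deleted, 7 control) and a bar at the group median. The deleted median lies under the control median for each gene, and the points of the groups overlap in each.

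Rac2 and Rac1 were the GTPase genes that fell. Rac2 is the Rac form of blood cells (gene number 19354; GRCm38 chromosome 15, 78559169 to 78572783). It was at 516, 738 and 1055 CPM in deleted libraries (lowest, median and highest), against 695, 1557 and 2964 CPM in control libraries. Of the deleted libraries, 2 of 6 were below the lowest control library, replicate 2. The log2 fold change of Rac2 was -1.16 (SE 0.35, adjusted p = 0.0343 by edgeR). Rac1, the widely expressed form (gene number 19353; chromosome 5, 143505481 to 143528031), was at 40.8, 77.6 and 117 CPM in deleted libraries, against 89.4, 134 and 228 CPM in control libraries. Here 4 of 6 deleted libraries were below the lowest control library, while deleted replicates 1 and 4 were within the control range. The log2 fold change of Rac1 was -0.85 (SE 0.26, adjusted p = 0.0396 by edgeR). Cdc42, which controls polarity and filopodia (gene number 12540; chromosome 4, 137319696 to 137357759), was at 173, 276 and 321 CPM in deleted libraries, against 158, 443 and 990 CPM in control libraries. No deleted library was below the lowest control library, and the log2 fold change of -0.94 (SE 0.33, adjusted p = 0.0697 by edgeR) did not pass the test. Control libraries spread over a 6.27-fold range for Cdc42, more than for any other of the 10 genes, and deleted libraries over a 1.85-fold range.

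None of the 3 exchange factor genes passed the test. Dock8, whose product acts on Cdc42 (gene number 76088; chromosome 19, 24999321 to 25202432), was at 117, 213 and 294 CPM in deleted libraries, against 162, 312 and 399 CPM in control libraries. Only deleted replicate 7 was below the lowest control library. The log2 fold change of Dock8 was -0.44 (SE 0.26, adjusted p = 0.300 by edgeR), close to the median of genes with at least 50 mean CPM. Dock2, a Rac exchange factor that works with ELMO proteins (gene number 94176; chromosome 11, 34226815 to 34783905), was at 193, 278 and 334 CPM in deleted libraries, against 212, 503 and 667 CPM in control libraries. Deleted replicate 7 was again the one library below the control range, and control replicates 1 and 2 were within the range of the deleted libraries. The log2 fold change of Dock2 was -0.82 (SE 0.28, adjusted p = 0.0608 by edgeR). Vav1, which couples the T cell receptor to Rac, was at 66.8, 111 and 176 CPM in deleted libraries, against 69.0, 220 and 268 CPM in control libraries. Its ranges nearly coincided between the groups at the low end, and its log2 fold change was -0.67 (SE 0.30, adjusted p = 0.149 by edgeR). The annotation places a further counted gene across Dock8 (Ndufb4b) and one across Dock2 (Insyn2b), and no source used here says whether strand was used in counting.

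Of the genes that act on actin itself, Was fell. Was encodes WASP, which binds active Cdc42 and switches on the Arp2/3 complex (gene number 22376; chromosome X, 8081466 to 8090491). It was at 32.3, 50.8 and 69.2 CPM in deleted libraries, against 58.2, 83.1 and 104 CPM in control libraries. Of the deleted libraries, 4 of 6 were below the lowest control library, and the log2 fold change was -0.64 (SE 0.21, adjusted p = 0.0476 by edgeR). Was lies 486222 bases from Foxp3, the gene that carries the YFP-Cre allele, and both are on chromosome X, as is Msn. Coro1a, which encodes the actin-binding protein coronin 1A, was at 790, 1023 and 1278 CPM in deleted libraries, against 884, 1973 and 3415 CPM in control libraries. Its log2 fold change of -0.97 (SE 0.34, adjusted p = 0.0714 by edgeR) did not pass the test, and 2 of 6 deleted libraries were below the lowest control library. Of the 10 genes only Rac2 had a log2 fold change further from 0 than Coro1a, yet Was, with a smaller one, passed with a smaller SE.

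The membrane linkers did not pass the test. Msn encodes moesin, an ERM protein abundant in lymphocytes. It was at 251, 387 and 518 CPM in deleted libraries, against 217, 621 and 1052 CPM in control libraries. All deleted libraries were within the control range, and its log2 fold change was -0.71 (SE 0.33, adjusted p = 0.165 by edgeR). Ezr, which encodes the related protein ezrin, was at 125, 187 and 294 CPM in deleted libraries, against 113, 242 and 388 CPM in control libraries. Again all deleted libraries were within the control range, and its log2 fold change was -0.36 (SE 0.27, adjusted p = 0.428 by edgeR). For both, control replicate 2 was the lowest of all 13 libraries. Ezr had the value nearest 0 of the 10 genes.

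The calls depended on single libraries. Without deleted replicates 2, 3, 5 or 7, or without control replicates 4, 5, 6 or 7, 0 of the 10 genes passed edgeR's test (unadjusted, 6 or 7 were lower and 0 higher in each of these fits). The share of all genes at that unadjusted threshold was not counted in these fits. At an adjusted p under 0.05, the share of all genes lower was 5.59, 4.73, 4.26 and 4.45% without those deleted replicates. It was 4.79, 4.68, 6 and 7.35% without those control replicates. Without deleted replicate 4 (6.89% of genes lower) or control replicate 3 (7.83%), 2 of the 10 passed. Without deleted replicate 1 (10.4%) 4 passed, and without control replicate 1 (10.6%) 5 did. Without control replicate 2 (13.6%) 8 of 10 passed, all but Dock8 and Ezr. Dock8 and Ezr did not pass with any library left out. The log2 fold changes moved less than the calls: with each library left out in turn, Rac2 stayed between -1.30 and -0.98, Rac1 between -0.99 and -0.70 and Was between -0.74 and -0.54. DESeq2 called 6 of the 10 lower (9.96% of genes lower), adding Dock2, Cdc42 and Coro1a, and limma-voom with sample weights called 5 lower (12.2% of genes), adding Dock2 and Coro1a. With DESeq2 size factors (7.7% of genes lower) or upper quartile scaling (5.02%; median shift of log2 fold changes 0.18), edgeR called Rac2 alone. Without a filter on low counts (7.67%) the 3 calls were Rac2, Rac1 and Was, and with a filter of 10 CPM in 6 libraries (10.4%) they were Rac2 and Rac1. None of the 10 was called higher in any of 24 alternatives, in which 0.157 to 9.38% of genes were higher. The authors' deposited table gives a mean false discovery rate under 0.05 to 5 of the 10, which are Rac2 (mean log2 fold change -1.13), Rac1, Was, Dock2 and Coro1a. It gives a negative mean log2 fold change to all 10. The share of all genes under that rate in the authors' values was not counted, so these 5 have no background beside them.

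The 10 genes moved together from library to library within each group. Over 45 pairs of genes, the Pearson r of deviations from the group means across 13 libraries had a median of 0.84, from 0.62 for Rac2 and Was to 0.98 for Rac2 and Cdc42. Deleted replicate 1 was the highest deleted library for 7 of the 10 genes and deleted replicate 4 for the other 3, while deleted replicate 7 was the lowest for 10 of 10. Control replicates 5 and 4 were the highest for 6 and 4 of the genes, and control replicate 2 was the lowest for 8. Within each group, libraries with a larger receptor share tended to lie lower. The median deviation of the 10 genes had a Pearson r with the log2 receptor share of -0.96 over the 6 deleted libraries and -0.93 over the 7 control libraries. These are descriptions: both measures come from the same library and both are shares of its counts. Deleted replicate 1 (receptor share 0.761%) lay in the control range of that share, and control replicates 1 and 2 (0.953 and 1.07%) had the largest shares of the controls.

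**Figure D2:**
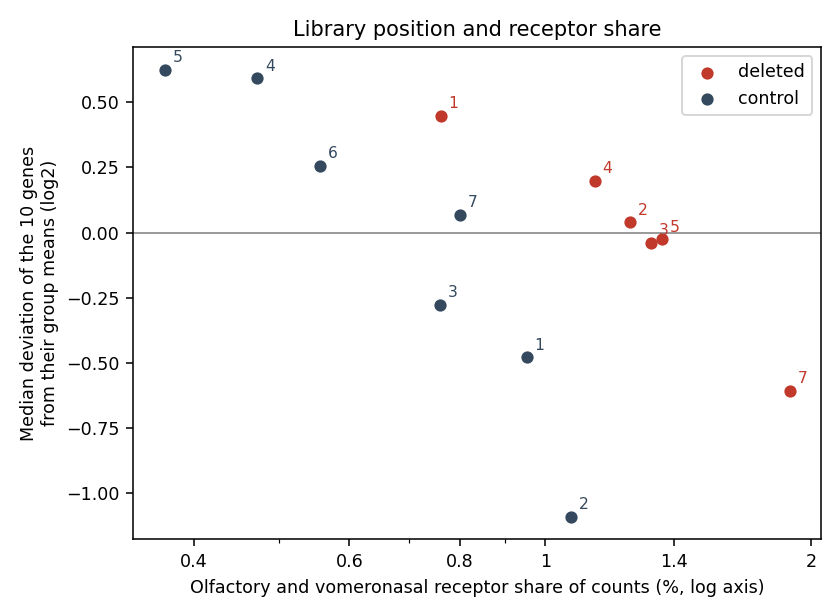
Median deviation of the 10 genes from their group means (log2) against the share of counts in olfactory and vomeronasal receptor genes (percent, log axis), with a point per library numbered by replicate. In both groups the libraries with larger shares tend to lie lower, down to deleted replicate 7 and control replicate 2.

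In 4 further fits, with another scaling, gene set, covariate or set of libraries, the log2 fold changes were smaller in size, except for Ezr in 1 of them. With the receptor share in the model Ezr was at 0.48 (SE 0.22), against -0.36 in the fit of all genes. Scaling by the genes of at least 50 mean CPM moved all log2 fold changes up by a median of 0.35 and turned the split over all genes to 882 higher and 699 lower (3.66 and 2.9%), against 400 higher and 2050 lower. Rac2 alone of the 10 then fell (-0.70, SE 0.20, adjusted p = 0.0363 by edgeR), while Dock8 was at -0.04 and Ezr at 0.05. When those genes were fitted alone, Rac2 (-0.70, SE 0.21, adjusted p = 0.0202) and Coro1a (-0.52, SE 0.19, adjusted p = 0.0476) fell by edgeR and Rac1 did not pass (-0.45, SE 0.16, adjusted p = 0.0506), beside 15.6% of genes lower and 9.38% higher. The median of the 10 was -0.33 there, beside 0.02 over the genes fitted. When the log2 receptor share was added to the model (its correlation with genotype was 0.69), edgeR called 0 of the 10 in either direction (unadjusted, 0 lower and 1 higher, Ezr), beside 0.233% of genes lower and 0.224% higher. Rac2 was then at -0.20 (SE 0.27), Rac1 at -0.00 (SE 0.20), Was at -0.17 (SE 0.20) and Dock8 at 0.30 (SE 0.21). When only libraries between 0.7 and 1.4% receptor share were kept, 5 deleted and 4 control, edgeR called 0 of the 10 (unadjusted also 0), beside 0.418% of genes lower, with Rac2 at -0.54 (SE 0.30), Rac1 at -0.36 (SE 0.23) and Was at -0.31 (SE 0.20). Coro1a (-0.09, SE 0.24) and Dock2 (-0.04, SE 0.24) were, like Rac2, Rac1 and Was, within 1 SE of 0 in the fit with the receptor share in the model. Ezr was above 0 in each of these 4 fits and passed in none.

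**Figure D3:**
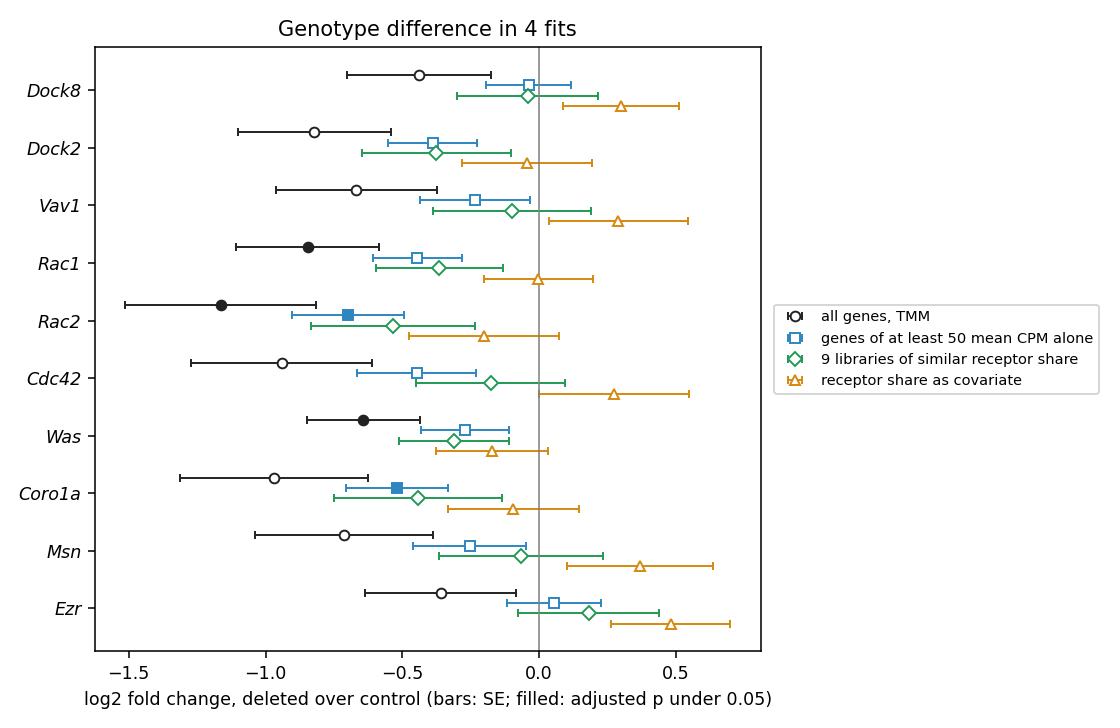
Log2 fold change of deleted over control with its SE for each of the 10 genes in 4 fits (all genes with TMM scaling, genes of at least 50 mean CPM alone, 9 libraries of similar receptor share, and receptor share as covariate), filled where the adjusted p is under 0.05. Rac2, Rac1 and Was are filled in the fit of all genes, Rac2 and Coro1a in that of genes of at least 50 mean CPM, and none in the other two.

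Markers of another cell type moved with genotype as well. The 6 B cell markers summed to 128 to 197 CPM in deleted libraries and 352 to 1087 CPM in control libraries, with no overlap, and all 6 had counts in every library. Ighm, the immunoglobulin heavy chain gene, was at 48.3 to 115 CPM in deleted and 262 to 990 CPM in control libraries. Ms4a1, the gene of the B cell surface protein CD20, was not lower in the deleted group, at 29.0 to 40.3 CPM in deleted and 16.2 to 30.3 CPM in control libraries. Rac2, Coro1a, Was, Vav1 and Dock2 are also used by B cells, and the part of such RNA in the results was not tested. Myeloid markers summed to 109 to 148 CPM in deleted and 63.9 to 151 CPM in control libraries, CD8 T and NK cell markers to 79.8 to 154 and 86.4 to 151 CPM, and erythroid markers to 33.5 to 51.9 and 22.7 to 56.5 CPM, all overlapping. In sorted populations, fewer cells of a type and less RNA per cell cannot be told apart.

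Count ratios of related genes within a library do not depend on scaling between libraries. For 4 ratios, the difference of mean log2 ratios was tested with a two-sided exact permutation test over 1716 regroupings of the libraries and adjusted by Benjamini-Hochberg over the 4. The Dock8 to Dock2 log2 ratio was at -0.72, -0.42 and -0.18 in deleted libraries (lowest, median and highest), against -0.96, -0.73 and -0.39 in control libraries. The highest control library was replicate 2, and 4 of 6 deleted libraries lay within the control range, whereas deleted replicate 7 alone lay within the range of the other controls. The means differed by 0.32, with an SD of 0.19 (n = 6) in the deleted and 0.18 (n = 7) in the control group. The exact permutation p was 0.0146, and the adjusted p of 0.0583 did not pass. Without deleted replicate 7 the difference was 0.38 (adjusted exact permutation p = 0.0354) and without control replicate 2 it was 0.37 (adjusted exact permutation p = 0.0260), and both passed. With any of the other 11 libraries left out it did not pass, at adjusted exact permutation p-values from 0.0693 to 0.156. The difference was positive with every single library left out, at 0.27 to 0.38, and was 0.30 in libraries of similar receptor share (adjusted exact permutation p = 0.190).

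The other ratios did not pass either. The Rac2 to Rac1 log2 ratio was 3.30 ± 0.41 (SD, n = 6) in the deleted and 3.51 ± 0.32 (SD, n = 7) in control libraries, which differ by -0.21 (exact permutation p = 0.330, adjusted p = 0.440). The 2 Rac genes were thus lower by amounts that could not be told apart. The Cdc42 to Rac1 log2 ratio was 1.78 ± 0.35 (SD, n = 6) in the deleted and 1.69 ± 0.46 (SD, n = 7) in control libraries, which differ by 0.09 (exact permutation p = 0.709, adjusted p = 0.709), which turned to -0.056 without control replicate 2. The Ezr to Msn log2 ratio was -0.98 ± 0.21 (SD, n = 6) in the deleted and -1.26 ± 0.38 (SD, n = 7) in control libraries, which differ by 0.28 (exact permutation p = 0.136, adjusted p = 0.272).

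**Figure D4:**
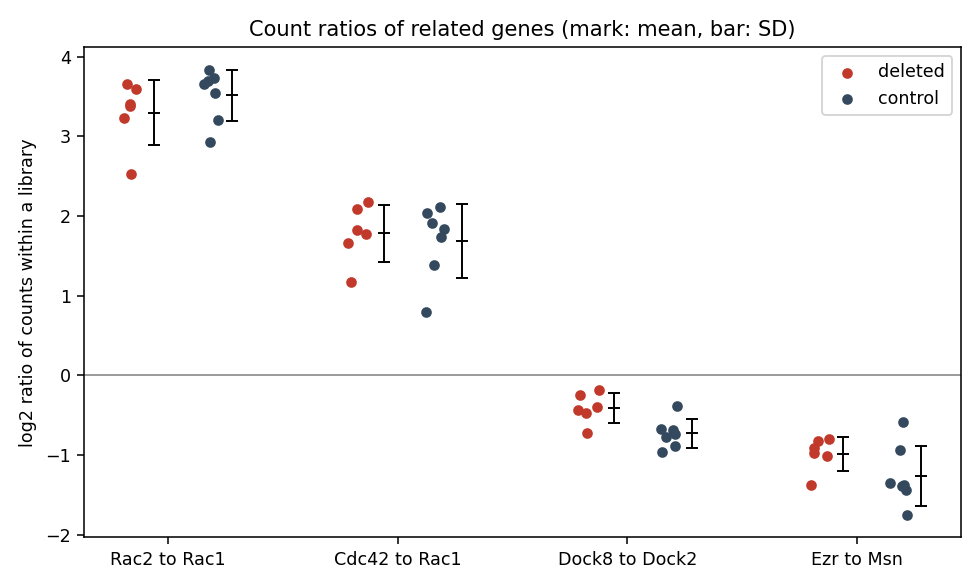
Log2 ratio of counts within a library for 4 pairs of related genes, with a point per library (6 deleted, 7 control) and the group mean with its SD. The Dock8 to Dock2 ratio has group means of -0.41 in deleted and -0.73 in control libraries.

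Beyond the 10 genes, 69 further genes of actin signalling were read in 6 lists, all of them in the count table and tested. By edgeR 14 of the 69 fell, 0 rose and 55 did not pass (unadjusted, 38 lower and 0 higher), beside the 8.52% lower over all genes and 23.8% among genes of at least 50 mean CPM. Unadjusted, 4083 of the 24068 genes tested were lower, and the count among genes of at least 50 mean CPM was not taken. DESeq2 called 25 of the 69 lower, beside 9.96% of all genes. The median log2 fold change of the 69 was -0.53. With the receptor share in the model 0 of the 69 passed by edgeR (unadjusted, 0 lower and 3 higher), and among libraries of similar receptor share 0 passed by edgeR (unadjusted, 4 lower and 0 higher).

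The Arp2/3 complex, which nucleates branched actin filaments downstream of WASP and WAVE, had the most calls, with 6 of 9 genes lower, 3 not passing and a median of -0.97. Arpc4 was at 117 to 210 CPM in deleted and 153 to 477 CPM in control libraries (log2 fold change -1.04, SE 0.27, adjusted p = 0.0174 by edgeR), and 4 of 6 deleted libraries were below the lowest control library. Arpc3 fell by 1.11 (SE 0.30) and Arpc5 fell by 1.09 (SE 0.30), and all of the 9 genes had negative values. In the WAVE and WASP list 3 of 13 fell, with a median of -0.67. Brk1, the smallest WAVE subunit, had the smallest p of the 6 lists: it was at 48.0 to 100.3 CPM in deleted and 99.7 to 312 CPM in control libraries (log2 fold change -1.09, SE 0.26, adjusted p = 0.0108 by edgeR). For Brk1 and for Hcls1, the gene of the cortactin-like protein HS1 (-0.92, SE 0.24), 5 of 6 deleted libraries were below the lowest control library. Wipf1, whose product stabilizes WASP, fell by 1.15 (SE 0.33).

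Of the PAK and IQGAP effectors 1 of 11 fell, Cdc42se2 (-0.92, SE 0.28), with a median of -0.37. Of the ERM partners and kinases 2 of 8 fell, Slc9a3r1, which encodes the scaffold EBP50 (-1.05, SE 0.29), and Selplg, the gene of the P-selectin ligand PSGL-1 (-0.94, SE 0.30), with a median of -0.48. Of the other exchange factors, ELMO and MOB adaptors, 0 of 14 passed by edgeR (unadjusted, 3 lower and 0 higher), with a median of -0.30 and values from -0.72 to 0.31. When genes of at least 50 mean CPM were fitted alone, 11 of 55 fell and 3 rose, beside 15.6% of all genes in that fit lower and 9.38% higher. The 3 were Dock11 (0.47), Vav3 (0.67) and Iqgap2 (0.52), named after their values were seen, and in the fit of all genes they were at 0.06, 0.31 and 0.14 and did not pass. Arpc4, Arpc5 and Brk1 were among the 4 genes of the lists that also fell under scaling by the genes of at least 50 mean CPM, where Iqgap2 and Wasl rose.

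**Figure D5:**
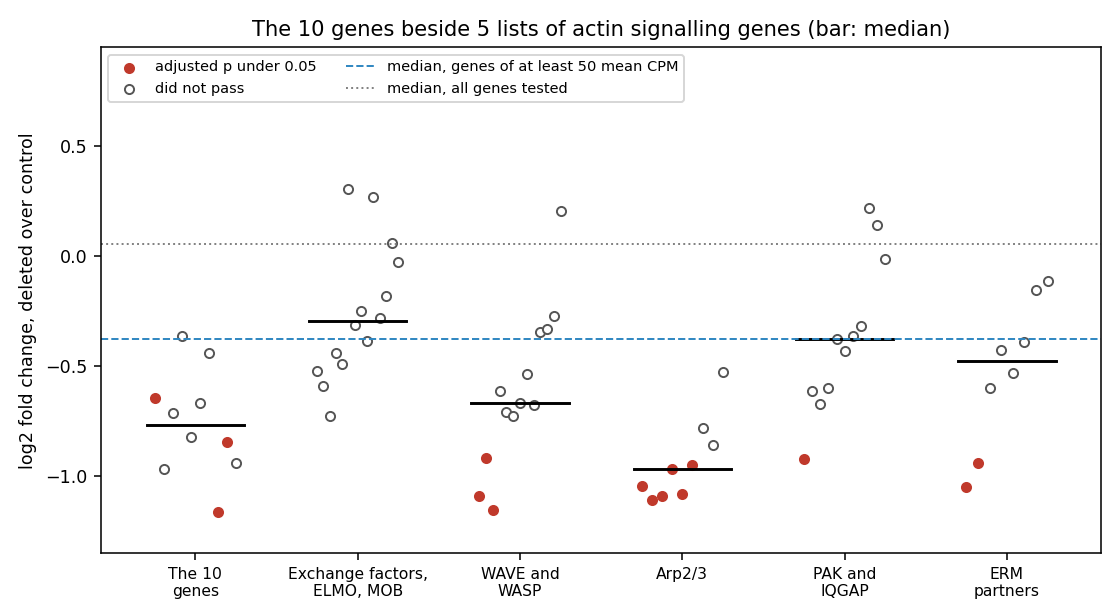
Log2 fold change of deleted over control for the 10 genes and for each gene of 5 actin signalling lists, red where the adjusted p is under 0.05, with a bar at each median. The Arp2/3 list has the lowest median (-0.97), and the dashed and dotted lines give the median of genes with at least 50 mean CPM (-0.38) and of all genes tested (0.06).

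Across 13 libraries, the genes whose deviations from the group means were most like those of Dock8, among 5203 other genes with at least 50 mean CPM, were Ripor2 (Pearson r = 0.99), Evl (0.98), gene number 100504230 (0.98, listed with no symbol), Trir (0.98) and Rab14 (0.98). Of the other 9 genes described here, Rac1 (r = 0.94) and Dock2 (0.93) were the most like Dock8, at ranks 98 and 155, and Was the least (0.74). These values share the libraries and their receptor share, so they describe the order of libraries and carry no test.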

How the data were processed

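Whole-number read counts for each gene were deposited by the authors; the values show no normalization. Per the submitters' processing notes, the tools were featureCounts 2.0.1, edgeR 3.28 and DESeq2 1.26.0, on GRCm38 or mm10; aligner, annotation and strand setting are not given in those notes. Log2 fold changes and p-values were read from the authors' deposited table. The group mean counts, a signal in both deposited tables, were not used.

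After filterByExpr and TMM scaling, genotype alone was modelled in edgeR 4.0.16 under R 4.3.3 (quasi-likelihood test), and p-values were Benjamini-Hochberg adjusted over 24068 genes. Alternatives were DESeq2 1.42.0, limma 3.58.1, other scalings and filters, library subsets and covariates. The 10 members, the lists, the receptor share and the alternatives were chosen with earlier results of these data known. The genes named are the 10 members, Stk3, Stk4, Foxp3, up to 3 genes of smallest p past the threshold per list, and the 5 genes most like Dock8; others are named as exceptions. The separate result of 1 of the 6 lists and 1 marker gene are not reported here. Ratios used counts plus 0.5. Tested on data simulated for the deleted and control libraries (24068 genes), the test found 32 of 100 planted 2-fold changes, 84 of 100 planted 4-fold changes and called 6 genes that had none. Each gene was drawn on its own, so shifts shared by the genes of a library were not simulated. The 6 calls therefore do not cover false calls from such shifts. The 10 gene numbers all matched the RefSeq table of GRCm38.p6. Levels were not compared between genes, since transcript lengths were not used here.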

Additional observations from a re-analysis of the deposited data

Results flagged for a closer look

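The Ezr to Msn log2 ratio of deleted replicate 5 was -1.38, far below the other 5 deleted libraries. Without it the difference between the groups was 0.36 (adjusted exact permutation p = 0.119), against 0.28 with it. It was the 1 set with such a library among 32 sets of 6 or 7 libraries examined, where chance gives about 1.6.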

How the results depend on the processing

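Over all genes, 2050 were lower and 400 higher. Counts lower and higher were 1208 and 761 with upper quartile scaling, 699 and 882 with scaling by genes of at least 50 mean CPM, 56 and 54 with receptor share in the model, and 101 and 38 in libraries of similar receptor share. With genes of at least 50 mean CPM fitted alone 813 were lower. By DESeq2 2455 genes were lower (9.96%) and 729 higher, and by limma-voom 2938 were lower (12.2%) and 1174 higher. Of the 10 genes, 1 was lower with DESeq2 size factors, with upper quartile scaling and with scaling by genes of at least 50 mean CPM, 0 with the covariate or in libraries of similar receptor share, 6 by DESeq2 and 5 by limma-voom. Of the 69 pathway genes, 4 were lower and 2 higher with scaling by genes of at least 50 mean CPM, 3 were higher with those genes fitted alone, 0 were lower with the covariate or in libraries of similar receptor share, 25 were lower by DESeq2 and 29 by limma-voom. The cause was not tested. Leaving out 1 library gave 1034 (deleted replicate 5) to 3245 (control replicate 2) genes lower, 167 (deleted replicate 7) to 860 (control replicate 2) higher, 0 to 8 of the 10 genes lower, and 3 (deleted replicates 5 and 7) to 34 (control replicate 2) pathway genes lower. It moved the log2 ratio differences to 0.27 to 0.38 for Dock8 to Dock2, -0.31 to -0.06 for Rac2 to Rac1, 0.20 to 0.39 for Ezr to Msn and -0.056 to 0.21 for Cdc42 to Rac1.

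The labels do not say whether equal replicate numbers pair the samples. Deviations from the group means had correlations of -0.32 to 0.41 between same-numbered libraries, which cannot settle it. With the replicate block, 734 genes were lower (3.05%) and 118 higher. By edgeR 0 of the 10 passed (unadjusted, 3 of the 10 lower and 0 higher), and so did 0 pathway genes (unadjusted, 23 lower and 0 higher). For the ratios the block was an exact sign-flip test on same-numbered pairs, which left out control replicate 6. The Dock8 to Dock2 difference was then 0.29 (adjusted exact sign-flip p = 0.125). It was positive in every pair, which gives the smallest p that this test can reach. This ratio alone thus could not have passed, and the block does not decide on it.

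The sign turned with the covariate for Dock8 (0.30), Vav1 (0.29), Cdc42 (0.27), Msn (0.37) and Ezr (0.48), and for Ezr also with scaling by genes of at least 50 mean CPM (0.054), with them fitted alone (0.054) and in libraries of similar receptor share (0.18). None of these passed. In simulated libraries of this depth and number most 2-fold changes were missed. These changes were planted at random among all 24068 genes, so the share missed is not that for genes of at least 50 mean CPM.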
